A study of Homo sapiens with 20 samples.

Results

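The 10 genes described here encode microtubule-associated proteins of the neuron: the doublecortins DCX and DCLK1, the structural proteins MAP1B, MAP2, MAPT (tau) and MAP6, and the stathmins STMN1, STMN2, STMN3 and STMN4. They were chosen by name as a family and not by a rule on their measured values, though earlier results of these data were known. Each was found by its symbol as 1 of 20237 records of coding genes, in a table of 38369 records in all, and none of the 10 shared its record with another named gene.

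RNA was sequenced from H1-derived neural progenitors (H1 is an established embryonic stem cell line of human origin) as they differentiated in culture. Day 0 cells were grown in proliferation medium with FGF, a mitogen for such cells, and all later cells were in medium without FGF and with BDNF, a neurotrophin. Cells of days 1, 2 and 4 stayed on the original Matrigel-coated wells, whereas those of days 5, 11 and 18 had been replated at day 4 onto poly-D-lysine and laminin. The labels list 20 samples, 3 for each day except day 5, which has 2, all from a single line. They list no culture kept in proliferation medium to the later days. Time, the change of medium and, from day 5, replating therefore cannot be told apart.

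Microtubules are hollow polymers of tubulin that stiffen axons and dendrites and serve as tracks for transport. Structural microtubule-associated proteins bind along the polymer and stabilise, bundle or space it: MAP2 is concentrated in dendrites and tau in axons of mature neurons, and doublecortin is a classical marker of young migrating neurons. Stathmins do the opposite, binding free tubulin and favouring disassembly; STMN1 is also abundant in dividing cells, whereas STMN2, STMN3 and STMN4 are membrane-anchored and mostly neuronal.

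The deposited table gives a single expression value per record and day, in FPKM (fragments counted per unit of transcript length and of mapped library size), which the authors estimated over the cultures of that day. The spread between cultures and the depth of each library cannot be read from these values, and no test was computed from them. The authors' own test statistics for pairs of days were deposited and were not used, so every difference below is a difference between these estimates, given without an error. A gene is said to have risen or fallen only where log2(FPKM + 0.1) differed by at least 2-fold, and other differences are given as values. The same count was made over the 11793 coding records with a mean of at least 1 FPKM, among them all 10 genes. In these bulk samples, fewer cells of a type and less RNA per cell cannot be told apart.

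Over the whole course, from day 0 to day 18, 6 of the 10 genes rose and 0 fell. The risers were MAPT, STMN4, STMN2, DCX, MAP6 and MAP2. Of all expressed coding records, 7.57% rose and 29.9% fell over the same interval. The summed FPKM of all coding records was itself lower on day 18, at 216151 against 358744 on day 0. These counts were made without rescaling the days to a common total, and changes relative to the median record are given further below. DCLK1, MAP1B, STMN1 and STMN3 stayed within 2-fold of their day 0 values. The median log2 change was 1.57 over the 10 genes and -0.60 over the coding records.

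DCX, on chromosome X (hg19 110537008 to 110655406, minus strand), encodes doublecortin, which binds between protofilaments of the microtubule and is needed for neuronal migration. Its level was 5.46 FPKM on day 0, 11.4 on day 1, 14.3 on day 2, 23.5 on day 4, 39.0 on day 5, 90.0 on day 11 and 88.0 on day 18. It was higher on each day than on the day before up to day 11, and the last 2 days were nearly level. The day 18 value was 16.1 times the day 0 value, a log2 change of 3.99. Among coding records ordered by level, DCX moved from place 8605 on day 0 to place 308 on day 18.

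DCLK1, on chromosome 13 (36343123 to 36705464, minus strand), encodes a doublecortin relative that joins the same tubulin-binding domains to a kinase. Its course differed from that of DCX: it was 21.1 FPKM on day 0, 11.7 on day 1, 11.5 on day 2, 14.0 on day 4, 19.3 on day 5, 31.9 on day 11 and 33.7 on day 18. The day 1 level was 0.556 times that of day 0, short of 2-fold, and placed DCLK1 at percentile 5.22 of the coding records for that step, whereas DCX rose 2.08 times in the same step. On days 1, 2, 4 and 5 DCLK1 lay below its own day 0 level and on days 11 and 18 above it. The ratio of DCX to DCLK1 was 0.259 on day 0, 0.970 on day 1, 1.24 on day 2, 2.82 on day 11 and 2.62 on day 18, so that the order of the pair had reversed by day 2. Its log2 change between day 0 and day 18 was 0.67. Exons of a lincRNA record on the other strand, linc-DCLK1-AS, cover 50.9% of the exon bases of the DCLK1 record, and no source used here states that strand was kept, without which the reads of both cannot be told apart. That record was at most 0.413 FPKM on any day.

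**Figure D1:**
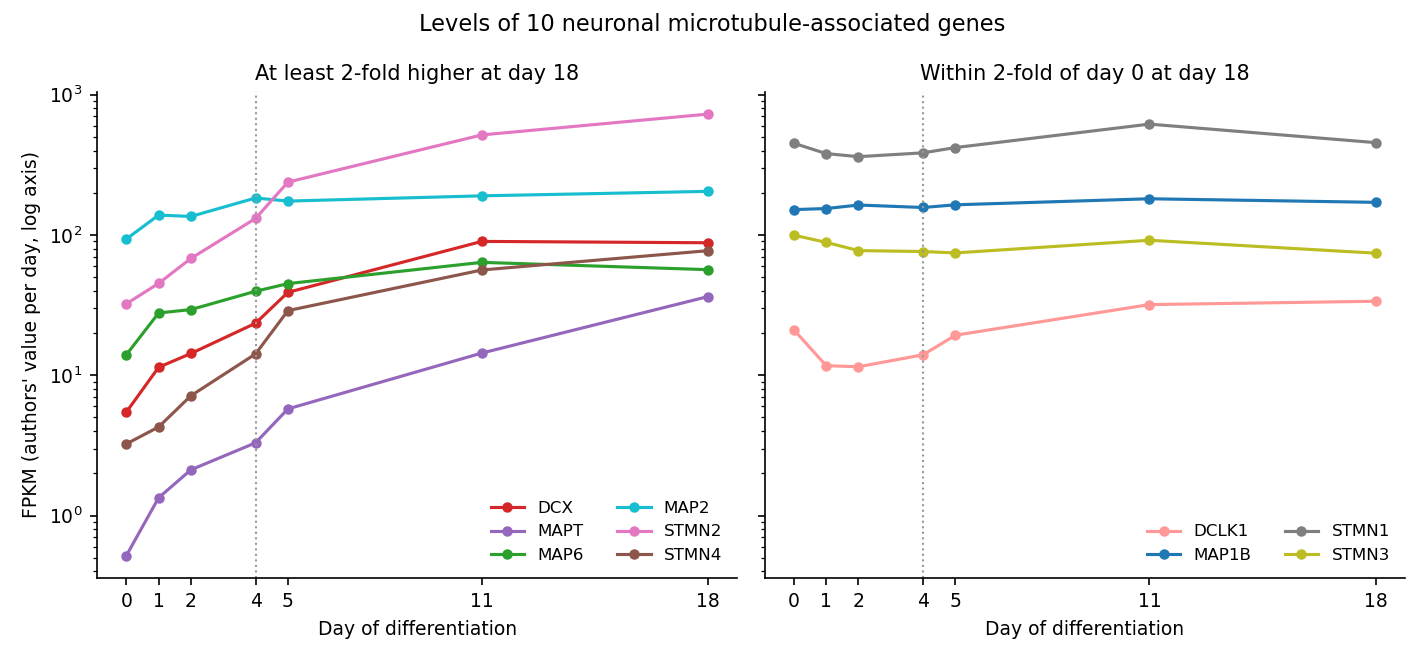
Expression of the 10 genes on each of the 7 days, with the 6 genes that rose by day 18 in the left panel and the 4 within 2-fold of day 0 in the right; the vertical axis is FPKM on a log scale, the horizontal axis the day of differentiation, each point is the authors' value for that day and the dotted line marks replating at day 4. MAPT climbs from 0.517 to 36.4 and STMN2 from 32.3 to 727, while MAP1B stays between 152 and 181.

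The 4 structural proteins began at very different levels. MAP1B (chromosome 5, 71403118 to 71505396, plus strand), which is prominent in growing axons and early in development, was already at 152 FPKM on day 0, then 154, 164, 157, 164, 181 and 171 on days 1, 2, 4, 5, 11 and 18. Its highest and lowest days were close together, and the day 18 value was 1.13 times that of day 0. Relative to other coding records, which were lower on the whole at day 18, MAP1B went from place 364 to place 122.

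MAP2 (chromosome 2, 210288771 to 210598834, plus strand), the dendritic protein, was 93.5 FPKM on day 0 and 139, 136, 184, 174, 190 and 205 on the following days. Its day 18 level was 2.19 times that of day 0, just past the 2-fold limit, with a log2 change of 1.13. By day 4 it had covered 86.1% of its log2 change. Cuffdiff2 marked its estimate as failed in the pairs of day 0 with day 1 and of day 1 with day 2, a mark that no other pair of neighbouring days carried for any of the 10 genes.

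MAPT (chromosome 17, 43971750 to 44105697, plus strand), which encodes the axonal protein tau, was the lowest of the 10 genes on day 0. It was 0.517 FPKM on day 0, 1.34 on day 1, 2.12 on day 2, 3.30 on day 4, 5.76 on day 5, 14.4 on day 11 and 36.4 on day 18. Every day was higher than the one before, and the day 18 value was 70.4 times that of day 0, a log2 change of 5.89 and the largest among the 10 genes. Its place among coding records went from 12208 to 1088. A second MAPT record, on an alternate haplotype contig of the same region, was listed at 0 on all 7 days.

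MAP6 (chromosome 11, 75297964 to 75379479, minus strand) encodes a protein that protects microtubules from cold-induced disassembly. It was 14.0 FPKM on day 0 and 27.8, 29.4, 39.7, 45.0, 63.8 and 56.6 on the following days, highest at day 11. Its day 18 level was 4.05 times that of day 0, and 49.0% of the log2 change had been covered by day 1. An antisense lincRNA record, linc-MAP6-AS, covers 26.8% of the exon bases of MAP6 and followed a like course, from 2.23 FPKM on day 0 to 7.57 on day 1 and 19.6 on day 18; its part in the MAP6 values was not tested.

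STMN1 (chromosome 1, 26210678 to 26233368, minus strand), the soluble stathmin, was the most abundant of the 10 genes on day 0. Its levels were 451 FPKM on day 0, 380 on day 1, 362 on day 2, 385 on day 4, 419.9 on day 5, 617 on day 11 and 455 on day 18. It dipped slightly over the first days, peaked on day 11 and ended at 1.01 times its day 0 level. STMN3 (chromosome 20, 62271061 to 62284780, minus strand), a Golgi- and membrane-anchored stathmin, was 99.7 FPKM on day 0 and 88.6, 77.4, 76.2, 74.5, 91.7 and 74.2 on the following days. Its day 18 value was 0.744 times that of day 0, a log2 change of -0.43. The direction of STMN3 turns to 0.17 when changes are taken relative to the median of the coding records.

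STMN2 (chromosome 8, 80523380 to 80578394, plus strand), also called SCG10, is a growth cone stathmin. It was 32.3 FPKM on day 0, 45.2 on day 1, 68.1 on day 2, 131 on day 4, 238 on day 5, 517 on day 11 and 727 on day 18. The level was higher at every successive day, and at day 18 it was 22.5 times that of day 0. STMN2 thereby moved from place 2420 to place 13 among all coding records and became the most abundant of the 10 genes. An antisense lincRNA record overlaps 13.5% of its exon bases and reached at most 0.505 FPKM.

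STMN4 (chromosome 8, 27093816 to 27115903, minus strand), also called RB3, ran a parallel course at a lower level. It was 3.24 FPKM on day 0, 4.28 on day 1, 7.15 on day 2, 14.2 on day 4, 28.9 on day 5, 56.3 on day 11 and 77.3 on day 18. The day 18 value was 23.9 times that of day 0, close to the factor for STMN2. The log2 changes from day 0 to day 18 were 4.54 for STMN4 and 4.49 for STMN2.

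The makeup of the stathmin family shifted from STMN1 to STMN2 over the course. FPKM is scaled by transcript length, so levels can be set side by side between genes. On day 0, STMN1 made up 76.9% of the summed stathmin FPKM, STMN3 17.0%, STMN2 5.51% and STMN4 0.552%. On day 4 the shares were 63.5% for STMN1, 21.6% for STMN2, 12.6% for STMN3 and 2.34% for STMN4. On day 18, STMN2 held 54.5%, STMN1 34.1%, STMN4 5.79% and STMN3 5.56%. The share of STMN1 was lower and that of STMN2 higher on every day than on the day before, and STMN2 overtook STMN1 between days 11 and 18. The sum itself was 586 FPKM on day 0, 514 on day 2, 1282 on day 11 and 1334 on day 18.

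**Figure D2:**
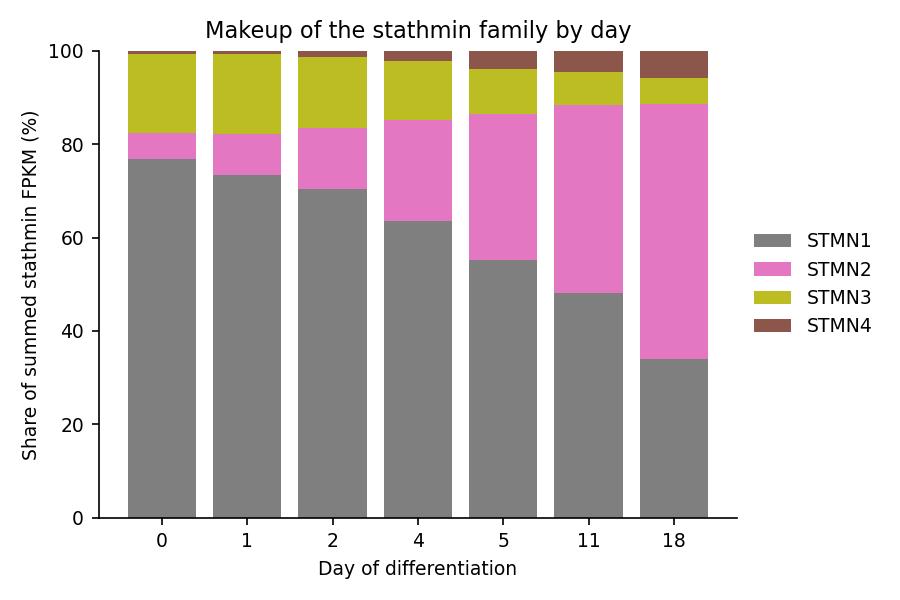
Share of each stathmin in the summed FPKM of STMN1, STMN2, STMN3 and STMN4, in percent from 0 to 100 on the vertical axis, with 1 stacked bar per day. STMN1 goes from 76.9% on day 0 to 34.1% on day 18 and STMN2 from 5.51% to 54.5%.

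Ratios within the structural proteins moved as well. MAP2 was 181 times MAPT on day 0 and 5.62 times on day 18. MAP1B was 1.62 times MAP2 on day 0 and 0.835 times on day 18. On day 0 the order of levels was STMN1, MAP1B, STMN3, MAP2, STMN2, DCLK1, MAP6, DCX, STMN4 and MAPT, and on day 18 it was STMN2, STMN1, MAP2, MAP1B, DCX, STMN4, STMN3, MAP6, MAPT and DCLK1. Because no spread was used, neighbours in these orders cannot be said to differ. The 10 genes together went from 872 to 1924.5 FPKM, which was 0.243% of the summed FPKM of all coding records on day 0 and 0.890% on day 18. That coding sum went from 358744 to 216151 FPKM, so the share grew by more than the level of the 10 genes did.

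The promoters of 4 of the genes are shown to set out how differently these genes begin in sequence. The RefSeq promoter table, built on GRCh38.p14, holds 300 bases per start, 250 before it and 50 after it; 6 of the 10 genes were found in it, with 15 promoters. Each was placed in hg19 by an exact match. The nearest promoter is printed where it lay within 100 bases of the start of an isoform in the deposited annotation, as was so for DCX (chrX:110654325-110654624, minus strand), DCLK1 (chr13:36705470-36705769, minus strand), MAP2 (chr2:210444081-210444380, plus strand) and STMN1 (chr1:26233322-26233621, minus strand). Sequences run 5′ to 3′ on the gene's strand, and capitals mark CG dinucleotides.
DCX: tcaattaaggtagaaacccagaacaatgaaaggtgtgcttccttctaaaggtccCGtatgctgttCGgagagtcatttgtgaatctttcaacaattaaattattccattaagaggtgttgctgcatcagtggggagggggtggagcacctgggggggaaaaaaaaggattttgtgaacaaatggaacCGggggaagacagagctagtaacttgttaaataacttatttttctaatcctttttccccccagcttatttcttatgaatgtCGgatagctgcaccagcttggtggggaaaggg
DCLK1: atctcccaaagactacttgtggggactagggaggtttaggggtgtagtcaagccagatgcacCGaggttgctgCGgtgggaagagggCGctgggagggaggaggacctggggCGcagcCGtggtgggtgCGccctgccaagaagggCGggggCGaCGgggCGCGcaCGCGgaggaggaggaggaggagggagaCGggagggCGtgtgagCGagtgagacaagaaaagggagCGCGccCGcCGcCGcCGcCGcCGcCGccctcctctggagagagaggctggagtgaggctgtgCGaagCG
MAP2: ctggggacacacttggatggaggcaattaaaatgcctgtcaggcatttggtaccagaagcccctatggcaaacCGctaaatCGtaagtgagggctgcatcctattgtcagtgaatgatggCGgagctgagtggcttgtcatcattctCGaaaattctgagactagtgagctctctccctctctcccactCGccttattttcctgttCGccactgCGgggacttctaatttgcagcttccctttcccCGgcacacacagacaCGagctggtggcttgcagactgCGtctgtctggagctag
STMN1: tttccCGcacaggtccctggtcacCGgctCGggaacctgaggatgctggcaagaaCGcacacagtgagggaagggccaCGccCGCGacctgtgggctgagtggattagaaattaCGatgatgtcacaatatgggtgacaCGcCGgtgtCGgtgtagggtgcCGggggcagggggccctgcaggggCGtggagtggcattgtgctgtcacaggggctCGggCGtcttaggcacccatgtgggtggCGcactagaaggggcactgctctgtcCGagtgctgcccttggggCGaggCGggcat

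The DCX sequence holds 4 CG dinucleotides with a GC content of 43.0%, that of MAP2 holds 10 with 52.3%, that of STMN1 19 with 64.3% and that of DCLK1 27 with 69.0%. Over the 35116 promoters of the table the median was 14 CG dinucleotides, with quartiles of 4 and 28, and the median GC content was 58.7%. Other starts of the same genes differed: a second DCLK1 promoter within 100 bases of an isoform start (chr13:36429755-36430054) holds 5 CG dinucleotides with 50.7% GC, and a second STMN1 promoter (chr1:26232861-26233160) holds 29 with 72.7%, while 2 further DCX promoters hold 2 each. The letters CAGATG and CAGCTG, forms of the E-box that proneural factors can bind, were searched on both strands. CAGATG occurred 1 time in the DCLK1 sequence and in none of the other 3, against 14.7% of all promoters. Among the promoters not printed, the second DCLK1 promoter holds 2 and 1 further DCX promoter, 19 bases from an isoform start, holds 1. A further MAP2 promoter and a MAP1B promoter, both more than 100 bases from any isoform start, hold 1 each. CAGCTG was in none of the 4 printed sequences, against 17.9% of all promoters.

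Step by step, the rises were spread over the course, and MAPT passed 2-fold in the most steps, 3. In the first day, after the change of medium, DCX (log2 change 1.05) and MAPT (1.22) rose, MAP6 lay just short at 0.99, and 0 of the 10 genes fell. Both rises were close to the limit, and with a pseudocount of 1 in place of 0.1 the number rising was 0. For the same step 3.60% of coding records rose and 3.09% fell. From day 1 to day 2, 0 of the 10 rose or fell, with STMN4 at 0.73, MAPT at 0.63 and STMN2 at 0.59, against 0.136% of records rising and 0.144% falling.

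From day 2 to day 4, 0 of the 10 again passed 2-fold in either direction, while STMN4 came to 0.98, STMN2 to 0.94, DCX to 0.72 and MAPT to 0.61. Of the coding records 0.127% rose and 0.653% fell in that step, and 6 of the 10 genes lay above the 95th percentile of all records. From day 4 to day 5, the day after replating, STMN4 rose with a log2 change of 1.02 (0 genes rose with a pseudocount of 1), and STMN2 (0.86), MAPT (0.79) and DCX (0.73) were higher short of 2-fold. The background was 0.254% rising and 0.0509% falling.

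From day 5 to day 11 all 10 genes were higher, against 28.7% of coding records with a change above 0. MAPT (1.30), DCX (1.20) and STMN2 (1.12) rose, STMN4 reached 0.96, DCLK1 0.73 and STMN1 0.56. In this step 1.80% of records rose and 4.24% fell. From day 11 to day 18, MAPT alone among the 10 rose, with a log2 change of 1.33. STMN2 (0.49) and STMN4 (0.46) were higher short of 2-fold, DCX (-0.03) was level, and MAP6 (-0.17), STMN3 (-0.30) and STMN1 (-0.44) were lower. The background of the last step was 0.839% rising and 3.72% falling.

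**Figure D3:**
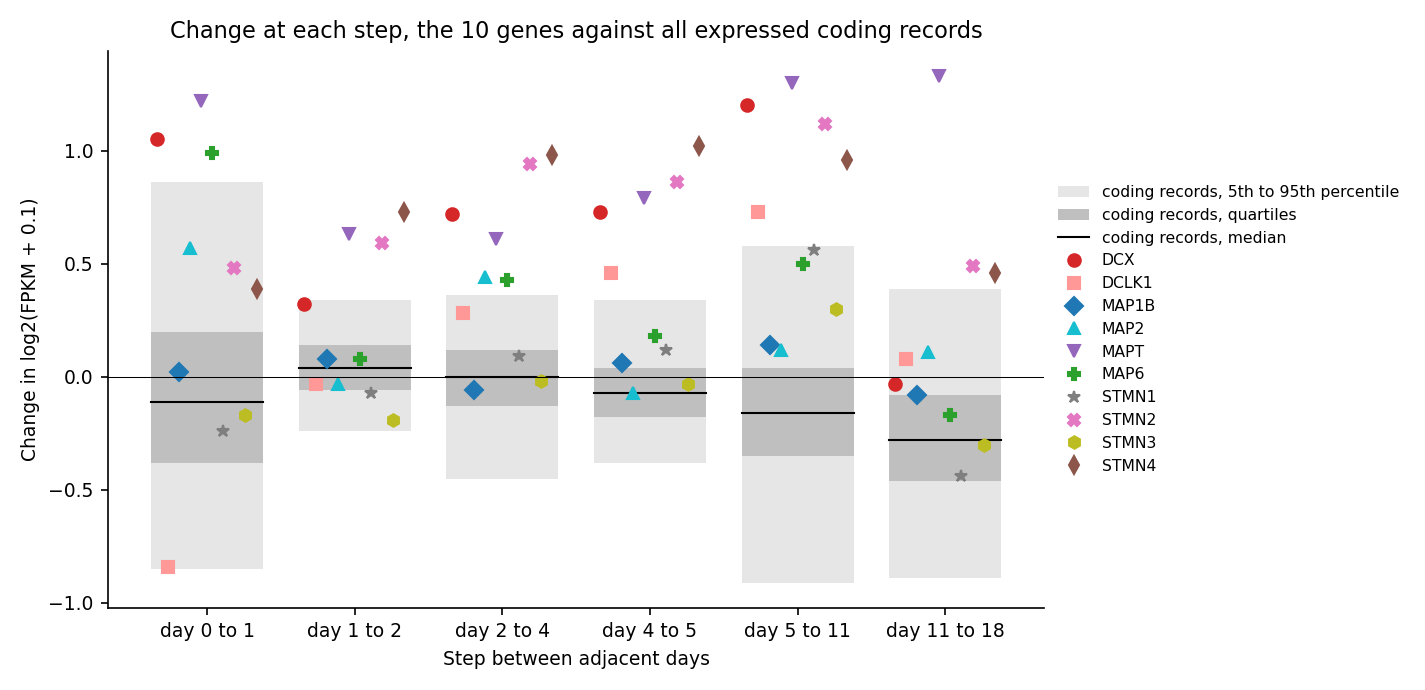
Change in log2(FPKM + 0.1) on the vertical axis over the 6 steps between neighbouring days on the horizontal axis; each symbol is 1 of the 10 genes, and for the expressed coding records the line is the median, the dark band the quartiles and the light band the 5th to 95th percentiles. MAPT lies above 1 in the first step and in the last 2, and the lowest symbol is DCLK1 in the first step, at -0.84.

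The share of the whole log2 change covered by a given day separated the risers further. By day 1, MAP2 (50.3%) and MAP6 (49.0%) had covered much more of their change than DCX (26.2%), MAPT (20.8%), STMN2 (10.8%) and STMN4 (8.67%), although the day 1 value of MAP2 belongs to the pairs marked as failed. These shares are of whole log2 changes of unlike size, from 1.13 for MAP2 to 5.89 for MAPT. The first step itself was 0.57 for MAP2 and 0.99 for MAP6, against 1.05 for DCX and 1.22 for MAPT. It was 0.48 for STMN2 and 0.39 for STMN4. By day 5 the shares were 83.6% for MAP6, 79.6% for MAP2, 70.6% for DCX, 68.7% for STMN4, 64.1% for STMN2 and 55.2% for MAPT. Of the log2 change of MAPT, 22.7% came between days 11 and 18.

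Set against the whole transcriptome from day 0 to day 18, 9 of the 10 genes had a change above 0, against 23.9% of coding records, and 5 lay above the 95th percentile. The coding records had a median log2 change of -0.60 with quartiles of -1.12 and -0.03. Relative to that median, all 10 genes were above 0 and 7 were past 2-fold, against 14.7% of records. The log2 changes relative to the median were 6.49 for MAPT, 5.14 for STMN4, 5.09 for STMN2, 4.58 for DCX, 2.61 for MAP6, 1.73 for MAP2, 1.27 for DCLK1, 0.77 for MAP1B, 0.61 for STMN1 and 0.17 for STMN3.

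**Figure D4:**
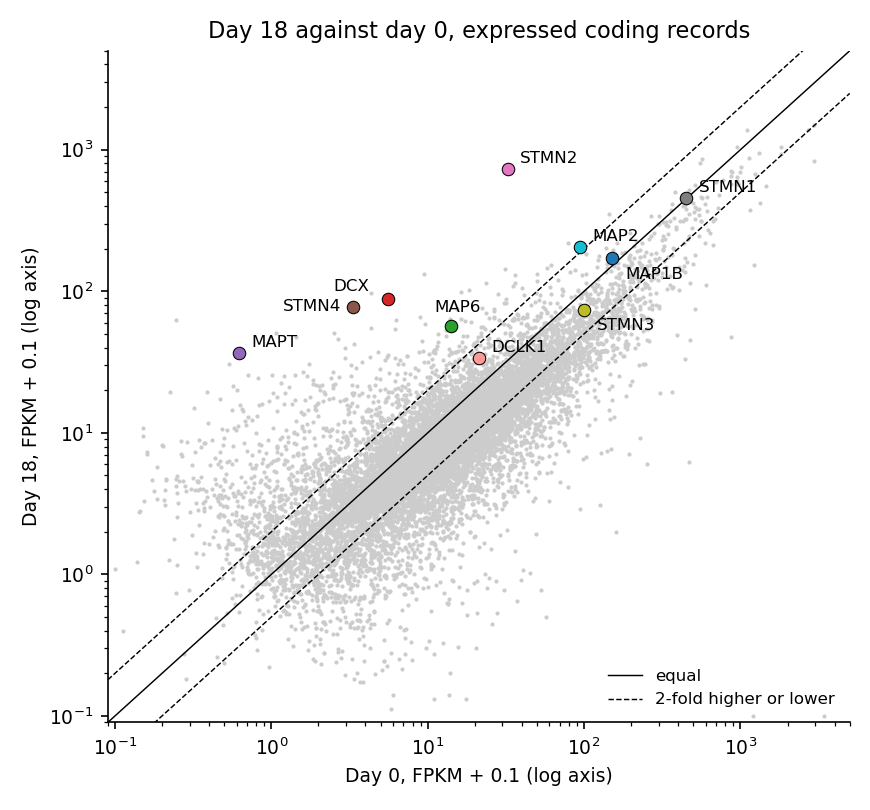
FPKM + 0.1 on day 18 (vertical, log scale) against day 0 (horizontal, log scale) for the 11793 expressed coding records (grey) and the 10 genes (coloured, named); the solid line marks equal levels and the dashed lines 2-fold. MAPT, STMN2, STMN4, DCX, MAP6 and MAP2 lie above the upper dashed line and none of the 10 below the lower.

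Genes of other microtubule functions were counted from day 0 to day 18 in 7 lists, over the members with a mean of at least 1 FPKM. All counts are to be read against the 7.57% of coding records that rose and the 29.9% that fell, and several of the smaller counts lie near those shares. Of 20 mitotic microtubule proteins, which build the spindle and midzone, 19 fell and 0 rose, with a median log2 change of -2.43. KIF20A, a cytokinesis kinesin, fell from 36.3 to 3.89 FPKM and KIF14 from 11.6 to 1.21, while NUMA1, a spindle pole protein, was the exception at -0.09. Of 21 axonal motors and cargo partners, 8 rose and 2 fell, with a median of 0.08. KIF5A, a neuronal kinesin-1 heavy chain, rose from 4.72 to 37.4 FPKM and KIF21B from 6.34 to 30.3, and KIF1C fell from 32.3 to 7.96 and NDE1, a dynein partner, from 21.1 to 5.47.

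Of 14 kinases and phosphatase subunits that act on microtubule-associated proteins, 3 rose and 0 fell, with a median of 0.40. CDK5R1 and CDK5R2, the activators of the neuronal kinase CDK5, rose from 6.52 to 32.7 and from 0.108 to 3.0 FPKM. Of 15 plus-end and minus-end proteins, 3 rose and 1 fell, with a median of -0.09. MAPRE3, an end-binding protein, rose from 6.82 to 30.6 FPKM, CLASP2 rose from 12.9 to 53.0, and GTSE1, which acts in mitosis, fell from 35.9 to 5.71.

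Of 11 other structural microtubule-associated proteins, 0 rose and 1, MAP7D3, fell, from 6.50 to 2.45 FPKM, with a median of -0.31. Of 16 tubulin modifying enzymes, 2 rose and 3 fell, with a median of -0.48. VASH2, a tubulin detyrosinase, rose from 4.05 to 9.11 FPKM and SIRT2, a tubulin deacetylase, from 10.6 to 21.5. TTLL4, a tubulin glutamylase, fell from 15.8 to 5.32 FPKM, and the record that holds TTLL3 with another gene fell by 1.22 on the log2 scale. Of 6 severing enzymes and partners, 0 rose and 1, FIGNL1, fell, from 10.3 to 4.09 FPKM, with a median of -0.55. Taking changes relative to the median raises every gene alike, and the share of all coding records that rose then goes from 7.57% to 14.7%. The share that fell on that scale was not counted, so the counts of falls that follow have no share to be set against. On that scale 7 rose and 0 fell among the kinases and phosphatase subunits, 5 and 1 among the plus-end and minus-end proteins, 5 and 0 among the tubulin modifying enzymes, and 1 and 0 in both the structural and the severing list. The mitotic list (0 and 19) and the motors (8 and 2) gave the same counts either way.

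**Figure D5:**
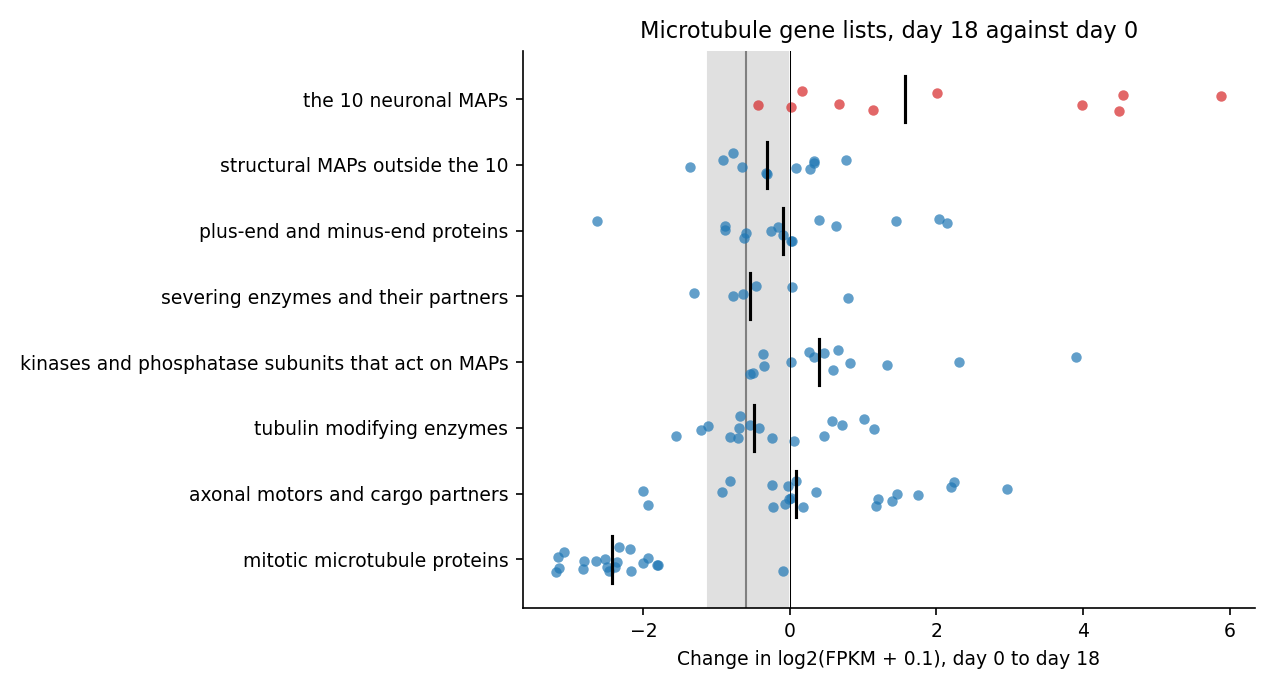
Log2 change of FPKM + 0.1 from day 0 to day 18 for the 10 genes and for the members of 7 other microtubule lists with a mean of at least 1 FPKM; each point is a gene, the black bar is the median of its list, and the grey band and line are the quartiles and the median of all expressed coding records. The medians are 1.57 for the 10 genes and -2.43 for the mitotic list.

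Marker lists were counted in the same way from day 0 to day 18, and they did not move alike. These counts, too, are to be read against the 7.57% of coding records that rose and the 29.9% that fell. Of 10 neuronal markers, 6 rose and 1 fell, NEFL, a neurofilament subunit, from 153 to 68.1 FPKM. Relative to the median of the coding records 6 rose and 0 fell, though the share of all records falling on that scale was not counted. The summed level of these markers was 968 FPKM on day 0 and ranged from 597 on day 1 to 1307 on day 11. Of that sum, 299 FPKM on day 1 and 647 on day 11 came from a merged record that holds TUBB3 together with MC1R and TUBB2C, a tubulin that is not limited to neurons. All 8 cell cycle markers fell, and their sum went from 613 FPKM on day 0 to 352 on day 1 and 112 on day 18. The sum of 8 neural progenitor markers was highest on day 2, at 4746 FPKM, and lowest on day 18, at 2071, with HES5 and PAX6 rising and NES falling. Most of that sum was VIM alone, at 3914 FPKM on day 2 and 1493 on day 18. The other 5 markers, VIM among them, changed by less than 2-fold from day 0 to day 18. Mesenchymal markers went from 294 to 37.8 FPKM, with all 5 expressed members lower by at least 2-fold and COL1A1 listed at 0. The parts that these shifts in markers had in the values of the 10 genes were not tested.

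Defining glial markers were near 0: the highest values on any day were 0.186 FPKM for GFAP and 0.342 for AQP4, both of astrocytes, and 0.326 for MBP and 0.165 for SOX10, both of oligodendrocytes. Other glial list genes were present, with summed astrocyte levels of 54.8 to 104 FPKM and oligodendrocyte levels of 26.3 to 40.9. Pluripotency markers summed to 9.92 FPKM on day 0 and 2.29 on day 18, nearly all of it DPPA4, with POU5F1 at most 0.108 and NANOG at most 0.0207.

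Coding records whose 7 daily values were most like those of each gene were listed by Pearson correlation of log2(FPKM + 0.1), among 5540 records that changed by at least 2-fold between any pair of days. The 7 values are points of a single time course, so high correlations are common among steadily rising records, and they are given as description. The 10 genes themselves were left out of the search; STMN2 and STMN4 correlated at 1.00 with each other. Outside the 10, STMN2 and STMN4 had the same 3 nearest records: ACTL6B, a neuronal subunit of the BAF chromatin remodelling complex (0.9999 with STMN2, 0.9988 with STMN4), SYT4, a synaptotagmin (0.9990 and 0.9966), and SLC17A6, a vesicular glutamate transporter (0.9983 and 0.9974). ACTL6B went from 0.908 to 25.6 FPKM, SYT4 from 1.34 to 47.6 and SLC17A6 from 1.32 to 25.4 between day 0 and day 18.

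DCX was nearest to SRRM3, a regulator of neuronal microexon splicing (0.9981), GRM2, a metabotropic glutamate receptor (0.9967), and TRAM1L1 (0.9962). MAPT was nearest to a record that merges RAB6A and RAB6B (0.9993), DTX1 (0.9986) and MPP2 (0.9980). MAP6 was nearest to ZNF737 (0.9970), ADAM11 (0.9946) and C7orf41 (0.9922), and MAP2 to KCNAB2, a potassium channel beta subunit (0.9922), ZNF528 (0.9885) and a record without a symbol (0.9870). DCLK1, with its early dip, was nearest to DOCK4 (0.9958), NAV3, a microtubule plus-end protein (0.9932), and LRRC4C, a netrin-G ligand (0.9902). NAV3 was also a riser of the plus-end list, from 1.18 to 3.39 FPKM. MAP1B, STMN1 and STMN3 varied by less than 2-fold over the 7 days and were not searched.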

How the data were processed

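Libraries of polyadenylated RNA were made with the TruSeq RNA-Seq kit. The authors used TopHat2 for alignment to hg19, Cufflinks for assembly and Cuffdiff2 for levels; versions are not given in the sources used here. The deposited values are FPKM, 1 per record and day over that day's cultures; 0 columns hold values of single samples. Deposited fold changes, test statistics, p-values and q-values for pairs of days were not used; only the estimate's status mark and the isoform coordinates were read. All 10 genes are named; each symbol was matched to its coding record with the highest mean. From each list the 2 largest rises and falls past 2-fold are named, and the 3 records nearest to each gene that varied at least 2-fold. The genes and lists were chosen with earlier results of these data known. Differences were taken on log2(FPKM + 0.1) with Python 3.11.15, NumPy 2.4.6, pandas 2.3.3 and matplotlib 3.10.9, and the counting was tested on simulated data. Other pseudocounts, fold limits, filters and centring were tried.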

Additional observations from a re-analysis of the deposited data

How the results depend on the processing

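The daily values used hold no spread between cultures and no library depth, so no replicate could be left out and no model was fitted to them; the authors' deposited test statistics were not used. No paired analysis was possible because the deposited table holds 1 value per record and day. From day 0 to day 18, the counts of 6 genes higher and 0 lower by 2-fold stayed within 1.5 times under every alternative run. With a pseudocount of 1, 0 genes rose in the first step and 0 in the step of days 4 to 5. With a limit of 1.5-fold, 1 gene was lower from day 0 to day 1, and 3, 4, 4 and 5 genes were higher from day 1 to 2, day 2 to 4, day 4 to 5 and day 5 to 11. With a limit of 4-fold, 0 were higher in the steps from day 0 to 1, day 4 to 5, day 5 to 11 and day 11 to 18. The shares of all coding records past 1.5-fold and 4-fold were not counted, so the counts at these limits have no background beside them. Recentred on the median change, STMN3 turned from -0.43 to 0.17 and DCLK1 went from 0.67 to 1.27. Without the filter on low levels, the share of coding records past 2-fold went from 0.136% to 0.222% higher and from 0.144% to 0.232% lower (day 1 to 2), from 0.0509% to 0.0939% lower (day 4 to 5) and from 0.839% to 1.29% higher (day 11 to 18). Of 134 values recomputed under an alternative, 117 were counted as kept, 16 as moved and 1 as reversed. Some of the kept values were counts of 0 that stayed at 0, and others changed in size. The share of coding records that fell from day 0 to day 18 went from 29.9% to 20.1% without the filter on low levels. The log2 change of MAPT went from 5.89 to 4.62 with a pseudocount of 1.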

Other observations

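Of the 10 neuronal markers, 2 fell past 2-fold from day 0 to day 1, the step in which DCLK1 was 0.556 times its day 0 level; they were picked out after their values were seen. GAP43, a growth cone protein, was 193 FPKM on day 0, 55.7 on day 1, 56.6 on day 2, 153 on day 11 and 173 on day 18. NEFM, a neurofilament subunit, was 179 FPKM on day 0, 56.7 on day 1, 62.8 on day 2, 196 on day 11 and 108 on day 18. Of all expressed coding records, 3.09% fell in that step. The other markers did not move alike: SYP, a synaptic vesicle protein, rose with a log2 change of 1.02, ELAVL4 was at 0.91, INA at 0.79, ELAVL3 at 0.27, SYT1 at -0.03, SNAP25 at -0.30, the merged record with TUBB3 at -0.35 and NEFL at -0.59. The record of NAV3 fell by 1.81 on the log2 scale in that step.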
